A study of Mus musculus with 26 samples.

Results

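The comparison set CD8+ T cells sorted from the livers of leukemia-bearing mice on days 13 and 14 against cells of the same T cell receptor sorted from spleen on day 14. It rests on 6 of the 26 sequencing runs of the series, chosen by their tissue, treatment and day in the sample labels, and these runs make up 4 of the 15 libraries: 3 from liver and 1 from spleen. Liver replicate 1 was from day 13 and belongs to the TG series of sample titles, liver replicate 2 was from day 13 and liver replicate 3 from day 14, both of the XC series, and the spleen library was from day 14 and of the XC series. All cells carried Tg101, a transgenic receptor of the segments TRAV13 and TRBV5 taken from the CD8+ clone T15, which recognises the C57BL/6 leukemia line C1498. The donor mice were on a Rag2-/- background, and the labels give C57BL/6, wild type and an age of 6 weeks for every sample. In the study, naive TCRTg101 were transferred intravenously, C1498 cells followed by the same route, and cells were recovered by flow sorting, with a Ficoll gradient for liver. Of the 15 libraries 14 were made from low input. Those fitted beside the day 13-14 libraries were 2 of naive TCRTg101 at day 0 and 2 from late liver at days 16 and 18. The fit also held 1 from leukemia-free mice at day 18 and 1 of undivided cells from leukemia-bearing mice at day 18.

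The model is a single receptor clone, the labels do not say whether the day 13-14 sorts were gated on division, and pooling of animals is not given. The labels do not state that the libraries of a group came from separate mice, so each p-value measures only the spread between these libraries. The spleen arm is 1 library, and the test assumes that it varies like the libraries of the groups with more than 1. Groups of 1 library add nothing to the measured spread, which therefore comes from day 0, day 13-14 liver and late liver. The fit had 3 residual degrees of freedom before spread was shared between genes.

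CD8+ T cells that meet antigen leave quiescence, divide, switch to glycolysis and make cytokines, chemokines and granzymes, while the naive factors Tcf7, Lef1, Foxo1 and Klf2 and the lymphoid homing genes they maintain are turned down. Under lasting stimulation the cells also carry co-inhibitory receptors such as PD-1 and LAG-3, a state known as exhaustion. Spleen is a lymphoid organ through which naive T cells recirculate, whereas T cells in liver lie in sinusoids beside hepatocytes, Kupffer cells and endothelium.

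Total estimated counts were 35216418 in the spleen library and between 28413340 and 71358287 in the liver libraries. Cd8a was at 654 CPM in spleen and 1034, 799 and 892 CPM in liver, and the transgenic Trbv5 made up 99.8% of Trbv counts in spleen and 99.8%, 99.5% and 99.8% in liver replicates 1, 2 and 3. The Trav13 family took 91.8% of Trav counts in spleen and 96.4%, 64.2% and 95.7% in liver, so liver replicate 2 held a lower share. In the other low-input libraries it ran from 59.7% (day 7 liver replicate 1) to 96.3% (late liver replicate 1). Trav counts were few, 5431 in liver replicate 2 against 185214 Trbv counts. Cd4 stayed at 0.951 CPM in spleen and at 0.417 to 0.986 CPM in liver. CPM, the count scaled to a common library size, is normalised by TMM, and fold changes are fitted log2 values of liver over spleen.

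Liver TCRTg101 had far more RNA for the chemokines Ccl3, Ccl4 and Xcl1, for the receptors Pdcd1, Lag3, Tnfrsf4 and Il2ra and for the lactate exporter Slc16a3 than spleen TCRTg101. Of 15465 genes tested, 80 rose in liver (0.517%) and 35 fell (0.226%), 115 in all (0.744%), in the quasi-likelihood fit of edgeR, after Benjamini-Hochberg adjustment to 0.05. At an unadjusted p under 0.05 the counts were 1181 higher (7.64%) and 1222 lower (7.9%). The median fold change was 2.47 among the genes that rose and -4.14 among those that fell, against 0.01 over all genes. These values come from the fit with the series term. They can exceed the direct differences in log2 CPM, as in the macrophage genes given below. Of the 80 genes that rose, 62 were higher in spleen than in all day 0 and day 18 control libraries. Of the 35 that fell, 21 were under 10 CPM in spleen and 25 were higher in day 0 replicate 1 than in spleen. These shares were not counted over all tested genes, so they do not set the called genes apart. Within the XC series, which holds the spleen library and 2 of the 3 liver libraries of the same fit, all 115 called genes had the same direction, so this is no separate support.

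Of the genes with the largest gaps at a mean log2 CPM of at least 5, Nrn1, which encodes the membrane protein neuritin, was at 7.197 CPM in spleen and 72.5, 88.9 and 60.6 CPM in liver (fold change 3.37, adjusted p = 0.00298), and the organic anion transporter gene Slco4a1 at 12.4 CPM against 115, 79.7 and 95.1 CPM (fold change 2.75, adjusted p = 0.00441). In the other direction Gm14085 was at 142 CPM against 16.9, 47.3 and 36.9 CPM (adjusted p = 0.0939), Dtx1, a regulator of Notch signalling, at 299 CPM against 61.6, 114 and 52.3 CPM (adjusted p = 0.314) and the adhesion receptor gene Adgrg5 at 153 CPM against 20.6, 61.8 and 29.4 CPM (adjusted p = 0.111). These 3 lay below spleen in every liver library and did not pass the test.

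The calls depended on the model. No gene passed with no series term (1240 at an unadjusted p under 0.05), with the 4 libraries alone (1016) or with the XC series alone (1976), 1 passed with the day 7 libraries in the fit, and DESeq2 called 874 (585 higher and 289 lower). Leaving out liver replicate 2 gave 608 calls, liver replicate 3 57 and late liver replicate 2 65. The split of higher to lower genes moved too, to 23 and 2 with counts scaled from TPM, 22 and 2 with the controls as 1 group and 41 and 36 without late liver replicate 1.

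**Figure D1:**
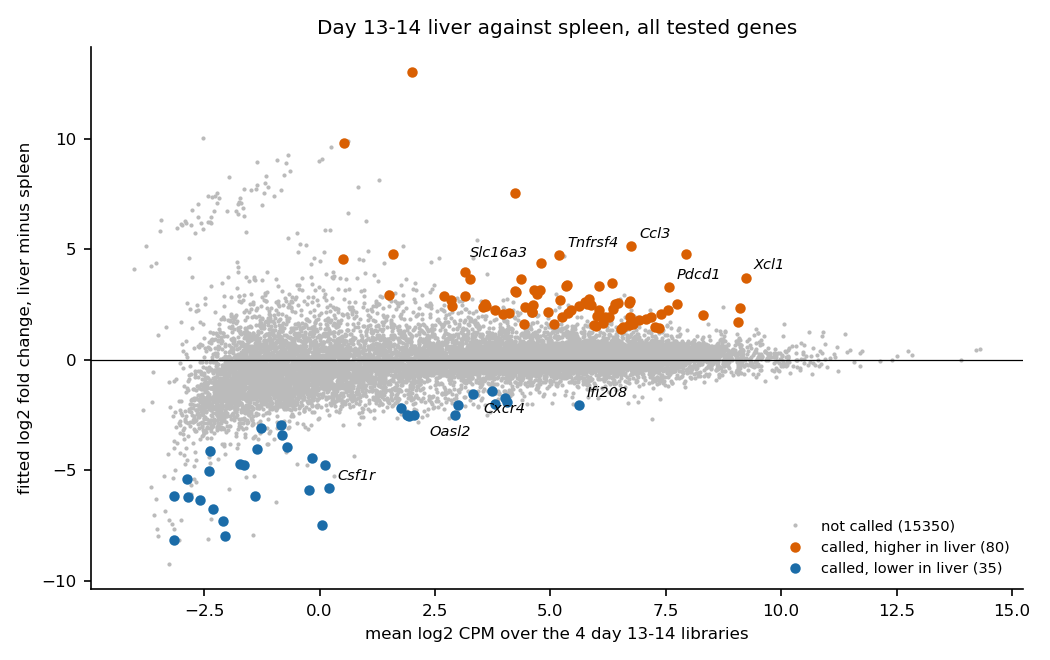
Fitted log2 fold change of liver over spleen (vertical axis) against the mean log2 CPM over the 4 day 13-14 libraries (horizontal axis), 1 point per tested gene; orange points are the 80 genes called higher in liver and blue points the 35 called lower. The genes called lower sit mostly at low levels, while Ccl3, Xcl1 and Pdcd1 stand out among well-expressed genes.

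On a line drawn from naive cells to late liver, the spleen library lay nearer the naive end than any liver library of the same days. With the mean of the day 0 controls set to 0 and that of the late liver libraries to 1, spleen lay at 0.402 and liver at 0.836, 0.717 and 0.876. Since the far end is made of liver libraries, the line does not separate tissue from progression. The day 18 control lay at 0.137 and the undivided day 18 cells at 0.195, both below the day 14 spleen. Euclidean distances on log2 CPM, after removal of the series effect, ran from 73.7 to 94.8 between liver libraries and from 120 to 138 between liver and spleen. The series effect was fitted partly from the liver libraries, so its removal draws liver replicate 1 (TG) toward the XC liver libraries. Libraries of the XC series are shifted alike. There the distance was 94.8 between liver replicates 2 and 3, and they lay 120 and 138 from spleen. The liver values do not overlap the spleen value on either measure, and the order is a description of 4 libraries.

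In 9212 genes (59.6%) all 3 liver libraries lay on one side of the spleen library, 4452 above (28.8%) and 4760 below (30.8%). With a margin of 1 on the log2 scale, 524 (3.39%) lay above and 936 (6.05%) below. These shares are the background against which the gene lists are read, and they depend on the scale. On log2(TPM + 1), where the median gene lay at -0.21 instead of -0.04, 2098 genes lay above spleen (13.6%) and 7419 below (48.0%). On that scale the tissue retention list went from 7 above and 2 below to 4 and 6, the cytokine receptor list from 8 and 5 to 4 and 6, and the fatty acid list from 6 and 2 to 2 and 4. No other functional list with more members above than below turned, and no list with more below turned to above.

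The list of co-inhibitory receptors, most of which dampen T cell signalling, was higher in liver. Of 13 members 12 had all liver libraries above spleen, none lay below, and the list's median fold change was 2.39. The 4 that passed the test were the receptor genes Pdcd1, Lag3 and Tigit and the ligand gene Cd200. Pdcd1, which encodes PD-1 (chromosome 1, 94038305 to 94052553, minus strand, GRCm38), had 32.8 CPM in the spleen library and 401, 235 and 414 CPM in liver replicates 1, 2 and 3. Its liver mean was 350.3 ± 99.7 CPM (SD, n = 3), 10.7-fold that of spleen, and its fitted fold change was 3.29 (SE 0.47, adjusted p = 0.0214). Spleen was not at the naive level either, since the control libraries of days 0 and 18 held 1.12 to 2.43 CPM and late liver 976 and 527. Within the XC series the difference in Pdcd1 was 3.25 and against liver replicate 1 it was 3.61.

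Lag3, a receptor for MHC class II (chromosome 6, 124904361 to 124911705, minus strand), was at 7.604 CPM in spleen and 53.9, 88.0 and 73.8 CPM in liver, a rise of 3.34 (SE 0.41, adjusted p = 0.00849). Cd200, a ligand of an inhibitory receptor on myeloid cells, rose by 2.59, from 27.1 CPM to 151, 163 and 172 CPM (adjusted p = 0.0073). Tigit, a receptor for poliovirus receptor proteins, was at 6.65 CPM in spleen and 61.2, 21.3 and 38.9 CPM in liver and rose by 2.15 (adjusted p = 0.0376). In each of these genes the lowest liver library was at least 3 times the spleen library.

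The other members had wide liver spreads or small gaps. Havcr2, which encodes TIM-3, was at 5.35 CPM in spleen and 27.3, 9.72 and 41.5 CPM in liver (fold change 2.39, SE 0.90, adjusted p = 0.293). Ctla4, the competitor of Cd28, had 37.1 CPM against 68.2, 105 and 149 CPM (adjusted p = 0.34). Klrg1, a marker of terminal effectors, ranged from 0.694 to 23.4 CPM among liver libraries and was 0.217 CPM in spleen. Cd101 was the member whose liver libraries overlapped spleen, at 13.2 CPM against 10.4, 16.7 and 23.9 CPM.

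**Figure D2:**
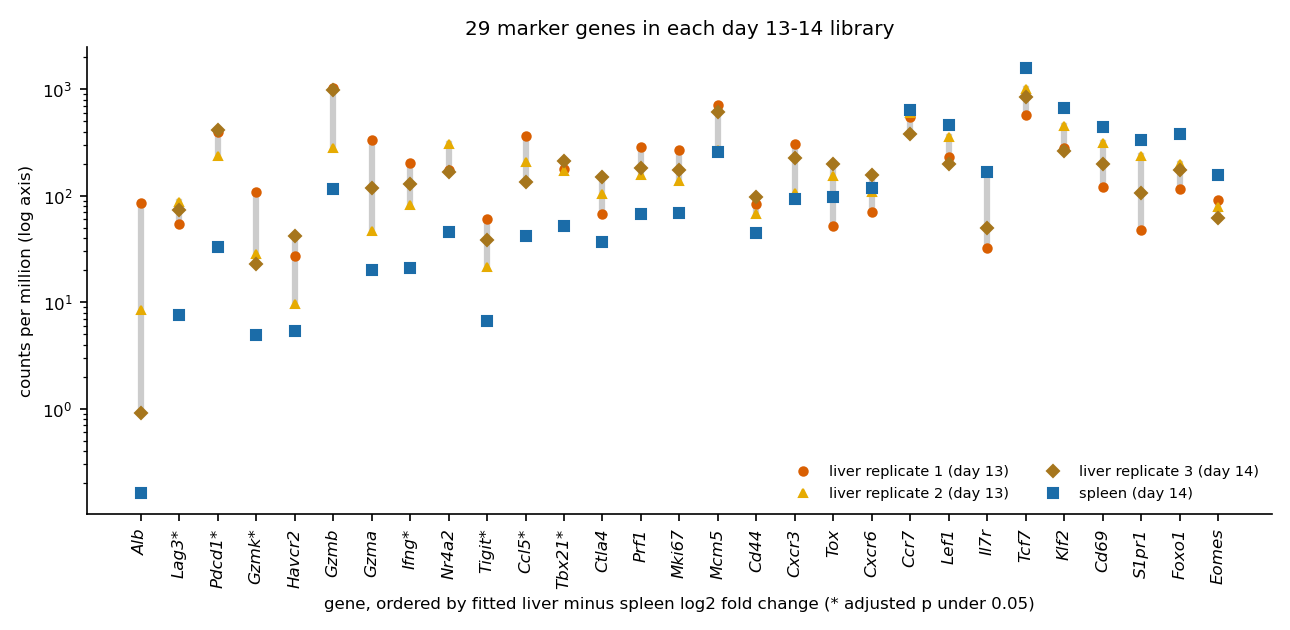
CPM on a log axis of 29 of the 30 marker genes in the 4 day 13-14 libraries, ordered by fitted fold change; blue squares are the spleen library, other symbols the 3 liver libraries, grey bars span the liver libraries and asterisks mark the 7 genes that passed the test. The spleen square lies under the liver symbols for the co-inhibitory and effector genes on the left and over them for most naive and homing genes on the right.

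Cytokine and chemokine genes of activated CD8+ T cells had the highest median fold change of the 22 functional lists. Of 14 cytokine and chemokine genes 13 were tested, 12 of these were above spleen in every liver library, 5 passed the test and none fell, with a median of 3.67. Il21, the member not tested, had 0.136 CPM in spleen and 0.139, 0.109 and 1.35 CPM in liver. Ltb, which encodes lymphotoxin beta, was the member that overlapped, at 642 CPM against 782, 618 and 474 CPM.

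Ccl3 and Ccl4, neighbouring genes for inflammatory chemokines (chromosome 11, 83647844 to 83649355, minus strand, and 83662584 to 83664683, plus strand), rose together. Ccl3 was at 5.54 CPM in spleen and at 623, 183 and 210.0 CPM in liver, a rise of 5.13 (SE 0.32, adjusted p = 0.000269), the smallest adjusted p of all genes. Ccl4 was at 13.7 CPM and at 1738, 456 and 321 CPM, a rise of 4.77 (SE 0.51, adjusted p = 0.0073). Liver replicate 1 was the highest in both, and the lowest liver library still stood far above spleen. Spleen exceeded the day 0 controls, which held 3.23 and 1.09 CPM of Ccl3 and 8.01 and 2.48 CPM of Ccl4, and the day 18 control, at 0.0974 and 0.357 CPM.

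Xcl1, the ligand of XCR1 on cross-presenting dendritic cells, was at 64.3 CPM in spleen and 2427, 922 and 909 CPM in liver and rose by 3.72 (SE 0.40, adjusted p = 0.00443). Ifng, which encodes interferon gamma, was at 20.8 CPM against 202, 81.4 and 128 CPM, a rise of 2.31 (SE 0.33, adjusted p = 0.0154). Ccl5, a chemokine kept by effector and memory cells, rose by 1.96 (adjusted p = 0.041), from 41.5 CPM to 363, 209.8 and 136 CPM. The spleen library exceeded every day 0 and day 18 control in these genes too, and no liver library came down to it. Il2, which encodes the T cell growth factor, was at 0.380 CPM in spleen and 68.6, 25.2 and 16.8 CPM in liver without passing the test (adjusted p = 0.133), and Tnf was at 15.2 CPM against 95.1, 50.3 and 32.2 CPM (adjusted p = 0.116).

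The killing genes were higher in liver in most members, with uneven liver libraries. Of 14 cytotoxic molecules and death ligands 11 lay above spleen and 1 below, 3 passed the test and the median was 1.51. Fasl, the ligand of the death receptor Fas, was at 3.61 CPM in spleen and 36.6, 30.03 and 32.4 CPM in liver, a narrow liver range, and it rose by 3.09 (SE 0.32, adjusted p = 0.00441). Gzmk, a granzyme of antigen-experienced cells, rose by 2.48, from 4.97 CPM to 109, 28.5 and 23.01 CPM (adjusted p = 0.0376), with liver replicate 1 highest. Serpinb9, which protects the killer cell from granzyme B, rose by 1.59, from 41.6 CPM to 189, 121 and 128 CPM (adjusted p = 0.044).

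Granzyme B did not pass. Gzmb was at 116 CPM in spleen and 1023, 283 and 978 CPM in liver (mean 761 ± 415 CPM, SD, n = 3; fold change 2.38, SE 0.76, adjusted p = 0.234), with liver replicate 2 well under the other two. Spleen Gzmb was far above the day 0 controls, at 3.16 and 2.07 CPM. Prf1, which encodes the pore former perforin, was at 67.1 CPM against 284.8, 156 and 181 CPM (fold change 1.43, adjusted p = 0.0792), and Gzma at 20.2 CPM against 331, 46.8 and 119 CPM (adjusted p = 0.268). Lamp1, a lysosomal membrane protein, was the member below spleen, at 227 CPM against 177, 203 and 197 CPM.

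Transcription factors induced by receptor signalling split. Of 18 members 12 were above spleen and 4 below, with a median of 1.14, and Irf4 was the member that passed. Irf4, which scales with receptor signal strength, was at 27.1 CPM in spleen and 130.4, 225 and 162 CPM in liver, a rise of 2.65 (SE 0.44, adjusted p = 0.038). The Nr4a nuclear receptors lay above spleen without passing: Nr4a2 at 45.3 CPM against 173, 307 and 169 CPM (fold change 2.25, adjusted p = 0.0632) and Nr4a3 at 24.2 CPM against 105, 256 and 109 CPM (adjusted p = 0.206). Egr2 and Egr3, partners of NFAT, had fold changes of 1.93 and 2.26 with adjusted p of 0.177 and 0.148.

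The 4 members below spleen were the AP-1 genes Fos, Fosb, Jun and Junb. Fos was at 832 CPM in spleen and 28.8, 198 and 97.5 CPM in liver, and Jun at 675 CPM against 17.4, 290.0 and 226 CPM. Neither passed the test (adjusted p = 0.424 and 0.473), and liver replicate 1 was the lowest library of the 4 in both. The phosphatase gene Dusp1, also an immediate early gene, was at 492 CPM in spleen and 16.5, 146 and 171 CPM in liver (adjusted p = 0.471). The day 0 and day 18 controls held 676 to 1517 CPM of Fos and 341 to 843 CPM of Dusp1, so spleen lay within the control range in both.

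Effector factors moved apart too. Of 16 members 9 were above spleen, 1 was below and 2 passed the test, with a median of 1.02. Tbx21, which encodes T-bet, was at 51.7 CPM in spleen and 178, 171 and 212 CPM in liver and rose by 1.83 (SE 0.33, adjusted p = 0.044). Nfil3, a basic leucine zipper factor, rose by 1.93, from 15.1 CPM to 38.0, 48.0 and 75.2 CPM (adjusted p = 0.0399). Eomes, the T-box relative of T-bet, was the member on the other side, with 155 CPM in spleen and 91.9, 78.6 and 61.7 CPM in liver (fold change -1.16, SE 0.28, adjusted p = 0.0992).

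Eomes did not pass the test, yet the day 14 spleen library held more of it than any of the other 13 low-input libraries, the next being day 7 liver replicate 1 at 122 CPM. Tox, a factor tied to exhaustion, overlapped: 97.7 CPM in spleen lay between liver replicate 1 at 52.0 CPM and liver replicates 2 and 3 at 155 and 199 CPM. Bhlhe40 and Prdm1, which encodes Blimp-1, were above spleen in all liver libraries, with fold changes of 2.92 and 2.46 and an adjusted p of 0.136 and 0.136.

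Genes of the naive programme were lower in liver by modest amounts and none passed. Of 16 naive and stem-like transcription factors 12 lay below spleen and 1 above, with a median of -0.69. Tcf7, which encodes TCF1, was at 1579 CPM in spleen and 578, 1015 and 845 CPM in liver (fold change -0.79, SE 0.23, adjusted p = 0.155). Foxo1, which maintains Klf2, was at 381 CPM against 115, 200.3 and 175 CPM (fold change -1.06, SE 0.22, adjusted p = 0.0653). Klf2 was at 662 CPM against 284, 452 and 263 CPM (adjusted p = 0.202) and Lef1 at 459 CPM against 232, 356 and 201 CPM (adjusted p = 0.296).

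Spleen Tcf7 lay within the 1066 to 1806 CPM of the day 0 and day 18 controls, and spleen Foxo1 lay just under their 384 to 522 CPM. Id3, an inhibitor of E proteins, was the member above spleen, at 179 CPM against 374, 228 and 209.5 CPM.

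Lymphoid homing and egress genes followed the same side. Of 13 members 10 lay below spleen and none above, with a median of -0.79, and Cxcr4 was the member that fell. Cxcr4, the receptor for CXCL12 (chromosome 1, 128588199 to 128592293, minus strand), was at 30.1 CPM in spleen and 7.08, 13.5 and 10.8 CPM in liver, a fold change of -1.39 (SE 0.26, adjusted p = 0.045). S1pr1, the egress receptor, was at 331 CPM against 48.1, 237 and 106 CPM (adjusted p = 0.323), and Il7r at 168 CPM against 32.6, 167 and 49.6 CPM (adjusted p = 0.68). Liver replicate 2 nearly reached spleen in Il7r, and liver replicates 1 and 3 did not. Ccr7, the receptor for lymph node chemokines, was nearly level at 641 CPM against 551, 596 and 379 CPM (adjusted p = 0.587).

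The tissue retention and liver homing genes had few members below spleen on the CPM scale, and 9 of 18 overlapped it. Above spleen lay 7 members and below it 2, shares of 38.9% and 11.1% against 28.8% and 30.8% of all genes. The median was 0.65, against 0.01 over all genes. Rgs16, a brake on chemokine receptor signals, was the member that passed, from 14.8 CPM in spleen to 92.2, 143 and 213 CPM in liver, a rise of 3.49 (SE 0.36, adjusted p = 0.00441). Cxcr6, a receptor that holds T cells in liver sinusoids, had 117 CPM in spleen inside the liver values of 70.2, 109 and 158 CPM, and its fold change of -0.08 (SE 0.50, adjusted p = 0.956) took either sign with the model. Cd69, which opposes S1pr1, was at 439.7 CPM in spleen and 122, 313 and 198 CPM in liver (adjusted p = 0.414), and Itgae, which encodes CD103, at 76.7 CPM against 12.2, 37.8 and 19.6 CPM (fold change -1.56, adjusted p = 0.123). Cxcr3 and Cd44 lay above spleen without passing, with fold changes of 0.70 and 0.80 and an adjusted p of 0.513 and 0.364.

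Few growth factor receptor and costimulatory receptor genes passed the test. Il2ra, the high-affinity chain of the IL-2 receptor, was at 12.7 CPM in spleen and 84.3, 133 and 139 CPM in liver and rose by 3.35 (SE 0.39, adjusted p = 0.0073). Cish, a suppressor induced by STAT5, rose by 2.46, from 12.2 CPM to 93.0, 66.5 and 76.1 CPM (adjusted p = 0.0119). These were the 2 of 18 cytokine receptor and SOCS genes that passed, and the list's median was 0.34.

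Among 11 costimulatory receptors 7 lay above spleen (63.6%, against 28.8% of all genes) and 2 below, 1 passed the test and the median was 1.03. Tnfrsf4, which encodes OX40 (chromosome 4, 156013843 to 156016612, plus strand), was at 2.55 CPM in spleen and 203, 45.1 and 73.6 CPM in liver, a rise of 4.75 (SE 0.52, adjusted p = 0.0073). Spleen held no more Tnfrsf4 than day 0 replicate 1 at 3.61 CPM, and late liver held 337 and 189 CPM. Tnfrsf9, which encodes 4-1BB, was at 135 CPM against 495, 491 and 409.8 CPM and just missed the threshold (adjusted p = 0.0522). Cd226, the activating counterpart of Tigit, was below spleen at 102 CPM against 55.2, 65.4 and 71.7 CPM (adjusted p = 0.228).

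Cell division genes were present in spleen and higher in most liver libraries, with no member passing. All 32 mitosis genes were tested, 31 lay above spleen and none below, and the median fold change was 1.47. Their summed level was 901 CPM in spleen and 4812, 1700 and 3064 CPM in liver, against 137 to 283 CPM in the day 0 and day 18 controls and 185 CPM in undivided cells. Ccnb1, the mitotic cyclin, was at 21.1 CPM in spleen and 227, 49.5 and 89.3 CPM in liver (fold change 1.86, SE 0.40, adjusted p = 0.0873), and Mki67, the proliferation marker, at 68.9 CPM against 269, 136 and 174 CPM (adjusted p = 0.386).

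DNA replication genes separated less. Of 32 members 22 lay above spleen and none below, with a median of 0.76, and the sums were 3120 CPM in spleen and 6549, 3342 and 7036 CPM in liver. Mcm5, a subunit of the replicative helicase, was at 259 CPM in spleen and 706, 271 and 617 CPM in liver (adjusted p = 0.467). Liver replicate 2 was close to spleen in both measures, while liver replicates 1 and 3 stood well above it. Cdkn1a, which encodes the cell cycle inhibitor p21, rose by 2.45, from 2.74 CPM to 31.8, 19.1 and 12.6 CPM (SE 0.43, adjusted p = 0.0376), the 1 of 15 tested quiescence genes that passed. Cdkn2a, the 16th, was too low to test, at 0.0815 CPM in spleen.

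Glycolysis genes were higher in liver almost throughout. Of 16 members 14 lay above spleen and none below, 2 passed the test and the median was 1.12. Slc16a3, which encodes the lactate exporter MCT4, was at 2.93 CPM in spleen and 48.7, 77.1 and 52.9 CPM in liver, a rise of 4.39 (SE 0.41, adjusted p = 0.00298). Tpi1, triose phosphate isomerase, rose by 2.34, from 149.5 CPM to 1061, 794 and 749 CPM (SE 0.26, adjusted p = 0.00481). Hk2, the inducible hexokinase, was at 9.04 CPM against 36.0, 44.0 and 34.6 CPM (fold change 2.01, adjusted p = 0.0572), and Ldha, lactate dehydrogenase, at 1242 CPM against 5584, 2795 and 2635 CPM (fold change 1.15, adjusted p = 0.0892). Slc2a3 and Hk1 overlapped, each with liver replicate 1 below spleen.

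The other metabolic and stress lists had no member that passed. Of 14 hypoxia genes 8 lay above spleen and 2 below, with Vegfa at 1.58 CPM against 7.55, 15.8 and 8.26 CPM (fold change 2.92, adjusted p = 0.0632) and Pdk1, which spares pyruvate from the mitochondrion, on the other side at 178 CPM against 54.9, 157 and 91.7 CPM. Of 20 unfolded protein response genes 13 lay above and 1 below, with a median of 0.50. The amino acid response gene Trib3 had the lowest adjusted p of that list, 0.0845, at 5.21 CPM against 19.9, 15.7 and 21.5 CPM. Cholesterol synthesis genes stayed near 0 with a median of -0.15, 1 of 22 above and 7 below. Fatty acid genes (15 of 16 tested) had a median of 0.23, and heat shock and dissociation genes one of -0.02 with 6 of 18 above and 8 below. That median covers members on both sides: Dusp1 and Zfp36 lay at least 1 below spleen on the log2 scale and Atf3 at least 1 above. Fos, Fosb, Jun and Junb stand in the receptor signalling list instead. The part of the Ficoll gradient, used for liver, in these values was not tested.

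**Figure D3:**
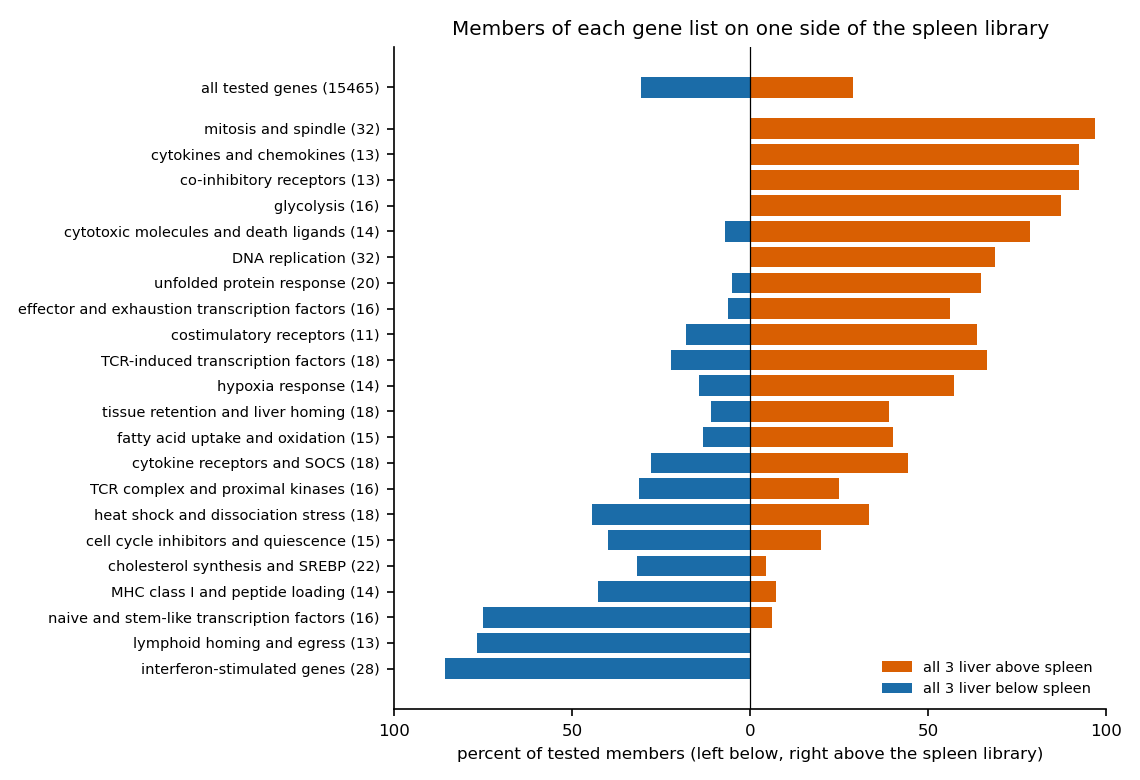
Percent of the tested members of each of 22 gene lists with all 3 liver libraries above the spleen library (orange, to the right) or below it (blue, to the left); the number of tested members stands in brackets, and the top bar gives all 15465 tested genes. Mitosis, chemokine, co-inhibitory and glycolysis lists lie almost wholly to the right, and interferon-stimulated, homing and naive factor lists to the left.

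Interferon-stimulated genes, which T cells turn on after interferon reaches them, were lower in liver. Of 28 members 24 lay below spleen (85.7%, against 30.8% of all genes) and none above, 1 fell by the test, and the median was -0.88. Their summed level was 3409 CPM in spleen and 1991, 2140 and 2242 CPM in liver, against 2076 to 2941 CPM in day 0 and day 18 controls, 3396 CPM in undivided day 18 cells and 1806 and 1695 CPM in late liver. The liver libraries were therefore near or under the lowest control and spleen above the highest.

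The promoters of several members hold the interferon-stimulated response element, the letters to which interferon-activated factors bind. In RefSeq promoter windows of 300 bases (GRCm38.p6), 10 of the 17 members with a window held GAAA, any 2 bases and GAAA on either strand (with the overlap of neighbouring matches allowed), against 3.99% of all genes with a window. The 200 bases before the start of 4 members are shown 5′ to 3′ in the direction of transcription, with each match of these letters or their reverse complement in capitals, as they carry the shared letters of the genes that lay on the spleen side together. Isg15 lies at chr4:156200819-156201018, minus strand, Ifit1 at chr19:34640689-34640888, plus strand, Ifit3 at chr19:34583329-34583528, plus strand, and Gbp2 at chr3:142620463-142620662, plus strand.
Isg15: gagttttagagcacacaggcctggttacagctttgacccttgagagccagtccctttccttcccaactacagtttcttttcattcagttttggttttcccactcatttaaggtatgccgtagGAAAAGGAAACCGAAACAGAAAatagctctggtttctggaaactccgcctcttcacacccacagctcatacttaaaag
Ifit1: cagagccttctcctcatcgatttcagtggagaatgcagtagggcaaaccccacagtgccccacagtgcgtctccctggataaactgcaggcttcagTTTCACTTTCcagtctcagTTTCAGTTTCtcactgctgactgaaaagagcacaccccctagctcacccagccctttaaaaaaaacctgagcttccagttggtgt
Ifit3: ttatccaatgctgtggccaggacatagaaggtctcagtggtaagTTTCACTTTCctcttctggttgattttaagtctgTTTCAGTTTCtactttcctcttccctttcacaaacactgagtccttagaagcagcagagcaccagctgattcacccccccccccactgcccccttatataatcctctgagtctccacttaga
Gbp2: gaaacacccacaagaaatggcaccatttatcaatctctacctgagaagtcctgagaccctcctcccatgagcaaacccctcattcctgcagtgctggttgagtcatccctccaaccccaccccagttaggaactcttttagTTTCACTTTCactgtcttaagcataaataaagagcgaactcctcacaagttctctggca
The Isg15 window has 3 overlapping matches that begin 78 to 66 bases before the start, those of Ifit1 and Ifit3 have 2 each and that of Gbp2 has 1. Starts are those of RefSeq, and the GENCODE annotation used for the counts begins Gbp2 at 142620602 and Ifit1 at 34640871, inside these windows, so that the Gbp2 match lies within its GENCODE gene. The E2F box TTTNGCGC was in 10 of 26 DNA replication windows (1.57% of all genes), and the KLF box CACCC in 7 of 9 lymphoid homing windows (59.8% of all genes), searched on both strands. The matches describe the letters and say nothing of what bound there.

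Oasl2, a member of the antiviral 2′-5′ oligoadenylate synthetase family, was the member that fell, from 32.5 CPM in spleen to 2.79, 8.49 and 4.201 CPM in liver (fold change -2.52, SE 0.43, adjusted p = 0.044). Of the genes whose promoters are printed above, Isg15, a ubiquitin-like modifier, was at 33.9 CPM against 15.0, 13.1 and 20.5 CPM (adjusted p = 0.166). Ifit1, which binds foreign RNA ends, was at 64.4 CPM against 6.08, 25.4 and 21.2 CPM (fold change -1.65, adjusted p = 0.0892). Ifit3, its partner, was at 81.3 CPM against 8.26, 30.8 and 16.5 CPM (adjusted p = 0.133) and the GTPase gene Gbp2 at 103 CPM against 27.9, 66.9 and 56.1 CPM (adjusted p = 0.214). Each had its highest liver library under spleen.

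Irf7, a transcription factor of the interferon response, lay on the same side at 145 CPM against 74.4, 69.9 and 64.5 CPM (adjusted p = 0.0792). Ifi208, an interferon-inducible gene of the HIN-200 family outside the list (chromosome 1, 173673675 to 173698395, plus strand), was the well-expressed gene that fell by the test, from 159.7 CPM to 18.1, 50.4 and 39.0 CPM (fold change -2.06, SE 0.36, adjusted p = 0.0489). Its neighbours of that family are similar in sequence, and reads could have been shared between them. Ifi206, of the same family, was at 339 CPM against 38.0, 134 and 92.2 CPM (adjusted p = 0.114), and Rtp4, another interferon-induced gene, at 79.8 CPM against 18.5, 29.6 and 29.2 CPM (adjusted p = 0.0889). MHC class I and peptide loading genes, which interferon also induces, had a median of -0.22 with 6 of 14 below and 1 above, and B2m was at 2754 CPM against 3444, 1886 and 1911 CPM (adjusted p = 0.317).

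**Figure D4:**
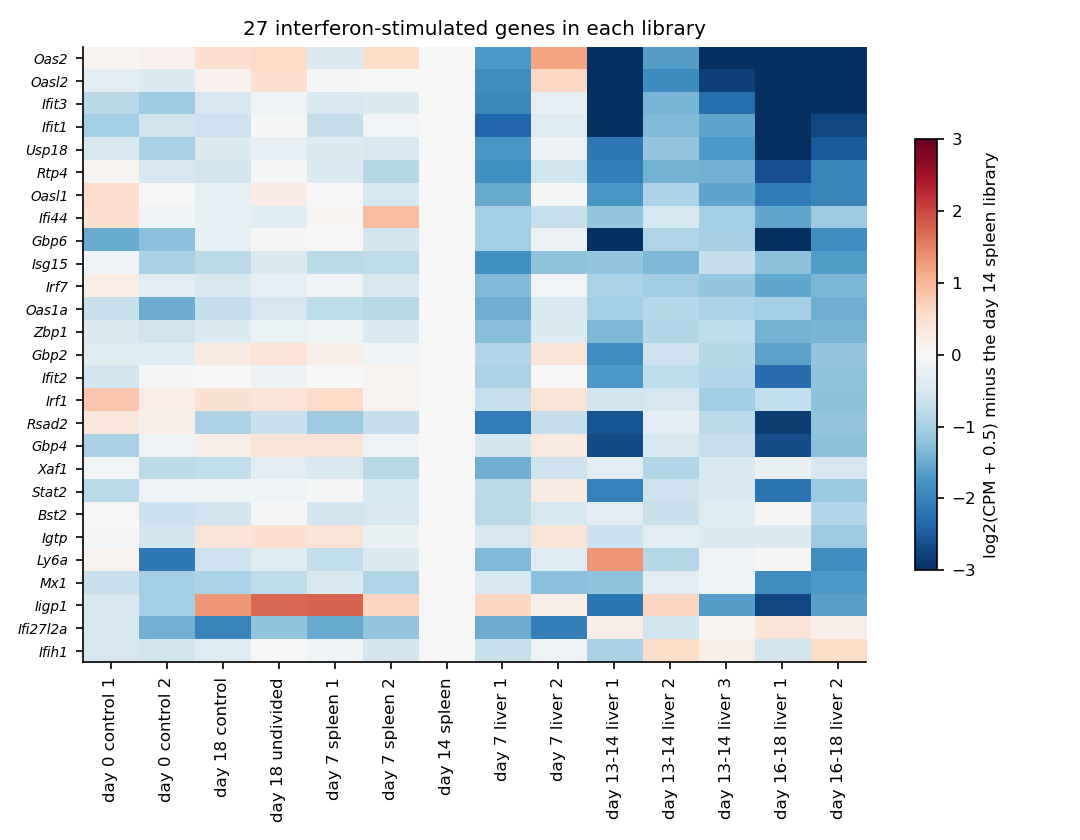
Log2(CPM + 0.5) of 27 of the 28 interferon-stimulated genes (vertical axis) in each of the 14 low-input libraries (horizontal axis), as the difference from the day 14 spleen library (colour scale, blue lower, red higher). The day 13-14 and day 16-18 liver columns are mostly blue, and the 4 genes whose day 13-14 liver libraries overlap spleen are Ifih1, Ifi27l2a, Iigp1 and Ly6a.

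The genes of the receptor complex lay on both sides. Of 16 T cell receptor complex and proximal kinase genes 4 lay above and 5 below spleen, shares of 25.0% and 31.2% against 28.8% and 30.8% of all genes, and none passed the test. Trat1, an adaptor of the receptor, had the largest gap, at 30.5 CPM against 8.78, 11.0 and 4.57 CPM (fold change -2.08, adjusted p = 0.0735), followed by Themis, a signalling protein of thymocytes and T cells, at 275 CPM against 49.7, 139 and 144 CPM (adjusted p = 0.111).

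Hepatocyte marker RNA was uneven among the liver libraries, and its full sum lay above spleen in liver replicates 1 and 2 but not in 3. The 28 hepatocyte markers summed to 25.2 CPM in spleen and to 628, 70.0 and 15.3 CPM in liver replicates 1, 2 and 3. Apoe and Trf, which macrophages also express, made up 17.1 and 5.57 CPM of the spleen sum, and without them the other 26 markers summed to 2.47 CPM in spleen and to 424, 48.9 and 8.15 CPM in liver. Alb, which encodes albumin, was at 0.163 CPM in spleen and 85.9, 8.49 and 0.913 CPM in liver (adjusted p = 0.333), and the secreted protease inhibitor Serpina3k had no count in spleen and 43.5, 4.53 and 0.475 CPM in liver. Of 20 tested markers 15 were above spleen and none passed the test. The day 0 controls summed to 797.5 and 100.4 CPM, nearly all of it Apoe and Trf, and to 13.7 and 2.29 CPM without them. Liver replicate 3, at 8.15 CPM without them, thus lay under day 0 replicate 1 and also under day 7 spleen replicate 2, at 11.7 CPM. With the marker genes left out of library sizes, the same 115 genes were called.

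Macrophage genes were on the opposite side. Of 8 tested Kupffer cell and macrophage markers 7 lay below spleen and 3 fell by the test. The median was -4.40 in the fit and -3.63 as the direct difference in log2 CPM. The complement gene C1qc was at 7.66 CPM in spleen and 1.23, 0.290 and 0.365 CPM in liver (fold change -4.74, SE 0.59, adjusted p = 0.0191), and Csf1r, the receptor for the macrophage growth factor, at 15.3 CPM against 0.712, 0.435 and 0.256 CPM (fold change -5.81, adjusted p = 0.00253). Direct log2 CPM differences from spleen (prior count 2) were smaller. For C1qc they were -4.35 within the XC series and -2.59 for liver replicate 1, and for Csf1r -5.31 and -4.33. The summed list was 58.2 CPM in spleen, 40.0, 10.6 and 15.1 CPM in liver and 1312 CPM in day 0 replicate 1. The Kupffer cell genes Clec4f, Vsig4 and Timd4 were at or under 1.23 CPM in all 4 libraries. Outside the list, the mannose receptor Mrc1, at 2.93 CPM in spleen and 0.0694, 0.0363 and 0 CPM in liver, and the iron exporter Slc40a1, at 12.9 CPM against 0.642, 0.0725 and 0.438 CPM, fell as well (adjusted p = 0.0103 and 0.0351), and both genes were named after their values were seen. In these sorted cells, fewer macrophages and less RNA per macrophage cannot be told apart, and the part of this RNA in the other differences was not tested.

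B cell markers also lay lower in liver. Of 13 tested B cell and plasma cell markers 7 lay below spleen, 4 of them by over 1 on the log2 scale, none lay above and none passed the test, with a median of -1.13. Ms4a1, which encodes CD20, was at 2.04 CPM in spleen and 0.0868, 0.254 and 0.365 CPM in liver (adjusted p = 0.136), and the MHC class II gene H2-Aa at 5.70 CPM against 2.78, 0.653 and 1.02 CPM (adjusted p = 0.0999). The sums, 704 CPM in spleen and 742, 522 and 519 CPM in liver, do not show this, since Ighm made up 599.8 CPM of the spleen sum. Erythroid markers, 10 of 11 of which were matched, summed to 26.0 CPM in spleen and to 228, 11.0 and 39.0 CPM in liver. Monocyte and dendritic cell markers lay on both sides, 4 of 12 tested above spleen and 4 below. They summed to 103 CPM in spleen and to 275, 106 and 129 CPM in liver, of which Cst3, which many cells express, made up 72.1 CPM in spleen and 202 CPM in liver replicate 1. Spi1, Ly86, Csf2rb and Flt3 were the members below spleen, with fold changes of -3.29, -2.23, -1.98 and -1.14, none of which passed the test. Neutrophil, stellate cell and platelet sums were at or under 10.8 CPM in all 4. Among sinusoidal endothelial markers Stab2, a scavenger receptor, fell from 0.869 CPM to 0.174, 0.0725 and 0 CPM (adjusted p = 0.0303), and Pecam1, which T cells also express, made up most of the sums of 165 CPM in spleen and 69.9 to 144 CPM in liver. Of the 5 CD4 T cell markers 4 lay above spleen in every liver library and 2, Cd40lg and Il2ra, rose. Zbtb7b, which sets CD4 lineage fate, was at 1.30 CPM in spleen and 4.32, 3.84 and 6.72 CPM in liver (adjusted p = 0.204), and Foxp3, the factor of regulatory T cells, at 0.462 CPM against 0.746, 0.689 and 1.97 CPM (adjusted p = 0.413). Cd4 itself overlapped spleen (adjusted p = 0.863). The part of CD4 T cells in the other differences was not tested.

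**Figure D5:**
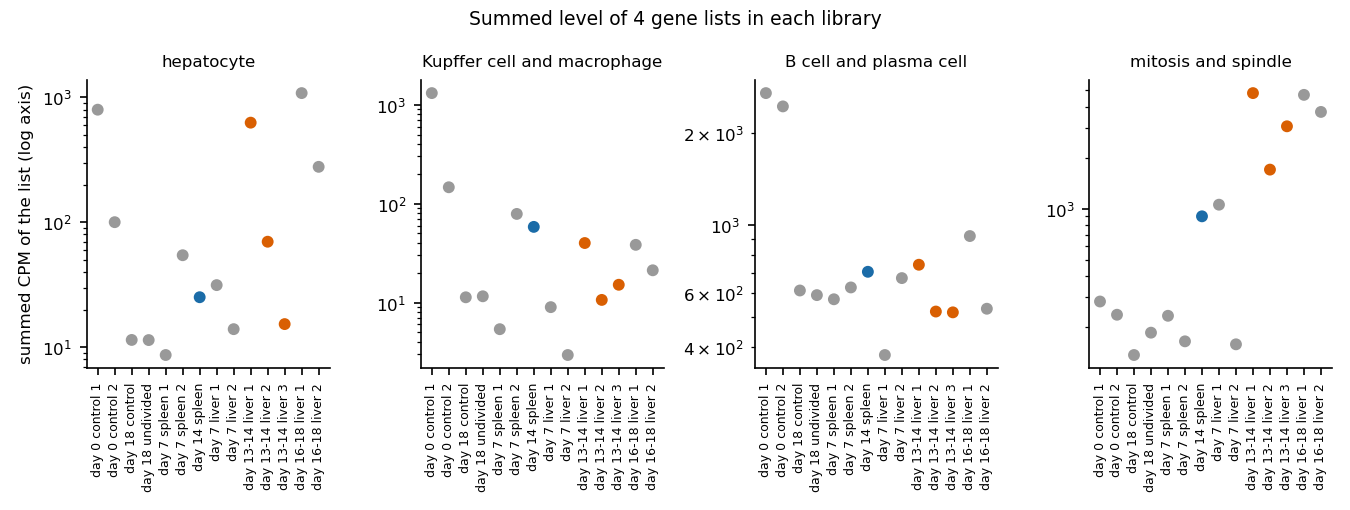
Summed CPM (log axes, which differ between panels) of hepatocyte, macrophage and B cell markers and of mitosis genes in the 14 low-input libraries; blue is the day 14 spleen library, orange the 3 day 13-14 liver libraries and grey the others. The hepatocyte sum, Apoe and Trf included, spans 15.3 to 628 CPM within the liver group, and mitosis genes place spleen between the controls and the liver libraries.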

How the data were processed

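RNA from sorted TCRTg101 was sequenced at low input in 14 libraries, and the deposited files hold kallisto values per transcript. The authors made the estimated counts and the length-scaled TPM values with kallisto, per the submitters' processing notes, which also name bcl2fastq and the builds mm10 and GRCm38; versions are not given in the sources used here. The study's own testing used DESeq2 with a batch term. Here the deposited estimated counts were summed per gene, runs of a library were summed, and sums were rounded; 99.0% to 99.29% of counts matched a gene. The runs of liver replicate 1 differed beyond sampling (mean chi-square per gene 25.0, against 2.09 for the spleen runs and 61.9 to 367 between liver libraries) and were counted as 1 library.

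A gene was kept where 6 or more of the 14 libraries held 10 or more counts of it (GENCODE vM21 names). edgeR 4.0.16 (R 4.3.3) fitted robust quasi-likelihood models with TMM scaling to 10 libraries, with group and title series (TG or XC) as terms, and called genes at a Benjamini-Hochberg adjusted p under 0.05. The title series stands in for the sequencing batch, which the labels do not give. The position of a library and the distances used log2 CPM after removal of the series effect with limma 3.58.1. DESeq2 1.42.0 was an alternative. Scripts were tested on counts simulated for these libraries, with 200 of 15465 genes changed between liver and spleen by 2 on the log2 scale. There edgeR recovered 44.5% of them with 10.1% of its calls false, and DESeq2 63.5% with 36.5% false. At a change of 4 these were 70% and 7.28% for edgeR and 83% and 32% for DESeq2. Total estimated counts of 22918996 to 71358287 per library set the counting precision.

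Named genes were 30 marker genes, the genes with the largest gap between spleen and the nearest liver library among called genes with a mean log2 CPM of at least 5 (8 in each direction; by gap alone where fewer were called), and up to 2 called members per list and direction. Other genes are given as list members. Results of a few genes are not reported here. The members and lists were chosen with earlier results of these data known. The alternatives were other scaling, filters, runs, library sets and controls, TPM-scaled counts, and each library left out in turn. Promoter windows came from RefSeq (GRCm38.p6).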

Additional observations from a re-analysis of the deposited data

How the results depend on the processing

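Of 1354 values of named genes under an alternative, 1085 kept their direction and side of the threshold, 226 lost the call, 36 gained one and 7 reversed. Against 115 called genes, 7 of the 30 marker genes and 24 list members, DESeq2 called 874, 14 and 124. No series term, the 4 day 13-14 libraries alone and the XC series alone each gave 0, 0 and 0 (1240, 1016 and 1976 genes at an unadjusted p under 0.05). All 14 low-input libraries gave 1, 0 and 0, controls as 1 group 24, 0 and 6, and counts scaled from TPM 25, 1 and 10; the cause was not tested. Leaving out 1 library gave 57 to 608 called genes, 3 to 15 marker genes and 15 to 98 list members: 608 without liver replicate 2, 57 without liver replicate 3 and 65 without late liver replicate 2. A margin of 1 on the log2 scale left 1460 genes with all liver libraries on one side of spleen, against 9212, and log2(TPM + 1) gave 2098 above and 7419 below. The values that reversed were those of Cxcr6, whose log2 fold change of -0.08 became 0.0046 with at least 10 counts in 1 library, 0.22 in the XC series, 0.021 with controls as 1 group and 0.43 with day 14 liver alone, and ran from -0.42 to 0.19 with 1 library left out. Leaving out the day 18 control or the undivided library, the interferon response element, the list counts on other scales and the hepatocyte sum without Apoe and Trf were chosen after seeing the data. No paired analysis was possible because replicate numbers were given in accession order and pair no samples. With 1 spleen library, its own spread could not be measured.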

Other observations

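Several of the genes that rose belong to no list and were chosen after their values were seen. Spp1, which encodes osteopontin, was at 0.353 CPM in the spleen library and 68.5, 54.3 and 82.9 CPM in liver replicates 1, 2 and 3, a rise of 7.57 (SE 0.79, adjusted p = 0.00952 by edgeR). Zbtb32, a zinc finger repressor of lymphocytes, was at 51.2 CPM in spleen and 350.0, 195 and 234 CPM in liver (adjusted p = 0.00849). The lowest liver library lay above spleen in both genes. Dusp4 and Spry1, brakes on the MAP kinase pathway, rose by 3.15 and 2.54 (adjusted p = 0.0073 and 0.00952), from 6.74 to 20.9, 59.1 and 68.8 CPM and from 22.1 to 156, 124 and 118 CPM.

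Pdcd1lg2, which encodes the PD-1 ligand PD-L2, was at 5.21 CPM in spleen and 36.0, 21.7 and 21.2 CPM in liver (adjusted p = 0.0269). Among genes that fell, Eya2, a transcriptional coactivator, was at 40.8 CPM against 9.18, 13.4 and 7.49 CPM (adjusted p = 0.0214).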
